A study of Rattus norvegicus with 23 samples.

Results

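Septins and the proteins that build, cap, bind and anchor actin filaments were followed in the dorsal hippocampus of young and aged rats. Members were chosen by gene symbol, with earlier results of these data known. The rule took probe sets carrying 1 symbol that names a septin, an actin, a subunit of the Arp2/3 complex or a capping protein. It also took profilins, cofilins, adducins, coronins, tropomyosins, alpha-actinins, tensins, ERM proteins (ezrin, radixin, moesin) and Csrp3. This rule found 57 of the 14503 gene symbols on the array, read by 65 of 29211 probe sets. Of these, 63 probe sets (55 symbols) reached the signal minimum of 40 on 4 arrays and were tested among 13339 probe sets. Capza3 (signals of 13 to 19) and Pfn4 (14 to 25) stayed under it. Several symbols had more than 1 probe set: Actg1 had 6, and Arpc1b, Arpc5 and Septin7 had 2 each.

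RNA of 23 male F344 rats was hybridized to Rat Gene 1.0 ST arrays, 1 array per rat. LT rats (n = 6) and ST rats (n = 6) had received an adeno-associated virus (AAV2/9) carrying rat FKBP1b, a protein that stabilizes ryanodine receptors, on both sides into hippocampal field CA1. AC rats (n = 5) had received the same type of vector carrying enhanced green fluorescent protein (eGFP) at a higher titer, and YC rats (n = 6) had received no injection by the study's methods, although the labels call them sham. All 3 aged groups were 21 months old and YC rats were 5 to 6 months old. Injection ages differ between the sources: for LT rats 12 months in the labels and 13 in the design text, for ST rats 18 and 19, and for AC rats 18 and 13. In both vectors the CaMKII promoter, active in excitatory neurons, drove the transgene, and rats of the ST and LT groups were picked for FKBP1b expression above the median of their parent groups. Age, surgery and vector therefore cannot be told apart in AC against YC, nor transgene and titer in LT or ST against AC. Exposure length and age at injection cannot be told apart in LT against ST. Both also differ between ST and AC by the design text, and between LT and AC by the labels.

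Actin monomers assemble into polar filaments that shape dendritic spines, growth cones and the processes of glia. Profilins load monomers for growth, the Arp2/3 complex starts branches, capping proteins close the fast-growing end, cofilins sever old filaments and coronins help to dismantle branches. Tropomyosins, alpha-actinins and adducins stabilize, bundle or cap filaments, while tensins and ERM proteins tie them to adhesion sites and to the plasma membrane. Septins are GTP-binding proteins that form hetero-oligomers, filaments and rings, and in neurons they sit at the base of spines and dendritic branches.

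Some libraries stood apart before any comparison was made. The summed signal of 10 choroid plexus genes (Ttr, Kl, Kcnj13 and others) was 4051 to 30352 in LT, 2878 to 3460 in ST, 2778 to 36320 in AC and 3405 to 4246 in YC, and LT replicates 2 and 5 and AC replicates 3 and 4 had a choroid plexus score (mean log2 deviation of the list from its mean over all arrays) of 2.49 or more. AC replicate 5 had the highest microglia score (0.83) and the lowest oligodendrocyte (-0.50) and hippocampal neuron (-0.38) scores of the AC arrays, an RNA integrity number of 8.9 and an array weight of 0.18. Relative to the other AC arrays, 15 of 63 members on this array lay over 0.2 log2 units away, against 29.7% of all tested probe sets. Summed over 9 microglia genes, signals reached 5297 to 6560 in LT, 5334 to 6575 in ST and 5251 to 8609 in AC, against 4296 to 4513 in YC, and 8 of 9 were higher in AC than in YC. A probe set that the platform annotation assigns to Fkbp1b (10940524), although the study's text says this array has none for the gene, averaged 1002 ± 147 in LT, 694 ± 153 in ST, 401 ± 40 in AC and 373 ± 20 in YC (SD). All LT arrays (843 to 1217) lay above all AC arrays (364 to 458), and ST arrays (427 to 881) overlapped them; because ST and LT rats were picked for FKBP1b expression, these levels are partly fixed by selection. In whole tissue, fewer cells of a type and less RNA per cell cannot be told apart.

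Promoter sequence was looked up in RefSeq (build GRCr8) for the member genes, and 49 of 57 had an entry. Windows covered 250 bases before to 50 bases after the annotated start. The GC box, GGGCGG on either strand, occurred in the windows of 38 of 49 member genes (77.6%), against 57.6% of the genes tested on the array and 36.0% of all genes with an entry. The CArG box, the binding sequence of serum response factor on both strands and free to overlap GC boxes, was found in 1 of 49 (2.04%), that of Actg1, against 1.77% of all genes with an entry. The 250 bases before the start are given for the higher member in AC with the smallest p (Msn) and for 2 lower ones that encode a monomer-binding protein (Pfn2) and a filament subunit (Actg1). Capitals mark GC boxes (CCGCCC where the box lies on the other strand) and, in Actg1, also the CArG box, which begins 90 bases before the start.
Msn, chrX:65005296-65005545, plus strand: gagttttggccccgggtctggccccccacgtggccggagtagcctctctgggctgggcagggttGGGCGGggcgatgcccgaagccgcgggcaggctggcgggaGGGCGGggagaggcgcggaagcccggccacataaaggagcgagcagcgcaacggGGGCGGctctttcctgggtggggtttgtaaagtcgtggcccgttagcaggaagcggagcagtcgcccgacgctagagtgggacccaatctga
Pfn2, chr2:144222937-144223186, minus strand: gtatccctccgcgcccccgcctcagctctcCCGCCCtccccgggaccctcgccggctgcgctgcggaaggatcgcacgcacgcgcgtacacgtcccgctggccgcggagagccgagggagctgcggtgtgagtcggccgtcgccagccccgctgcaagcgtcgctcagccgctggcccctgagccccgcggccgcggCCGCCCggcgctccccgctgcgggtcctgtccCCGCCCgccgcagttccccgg
Actg1, chr10:106120952-106121201, minus strand: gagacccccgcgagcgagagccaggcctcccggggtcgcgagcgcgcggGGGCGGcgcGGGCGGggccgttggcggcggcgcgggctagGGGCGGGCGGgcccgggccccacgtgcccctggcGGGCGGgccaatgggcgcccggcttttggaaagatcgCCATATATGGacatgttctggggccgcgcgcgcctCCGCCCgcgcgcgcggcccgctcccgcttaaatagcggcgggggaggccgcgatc

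The comparison of AC with YC asked which members differ between aged rats given a control vector and young rats without it. Moesin (Msn), Tns1, Septin9, Septin10 and Coro1b were higher in AC, each at an adjusted p under 0.05 in limma's test. By the same test and threshold Pfn3, Csrp3, Tns4, Actn3, Pfn2 and Capzb were lower. So were Arpc1b on probe set 10780798 only and Actg1 on probe set 10765090 only. These are 13 of 63 tested members (20.6%), against 9.75% of all tested probe sets. Higher members numbered 5 (7.94%), against 5.56% of all tested, and lower members 8 (12.7%), against 4.18%. Of the lower ones, Pfn2, Csrp3 and Tns4 are in a gene table that the study chose on these arrays. Members were also chosen with earlier results known, so these shares are not independent evidence. At a signal minimum of 100, which left out Pfn3, Csrp3 and Tns4, 7 members were higher and 6 lower. In that setting 11.3% of all tested passed in either direction. Across all 63 member probe sets, the median log2 fold change was -0.032, with 25 above and 38 below 0. Over all tested probe sets it was -0.0062, and 47.5% of them lay above 0. The 38 hold all 6 probe sets of Actg1, which are not independent of each other. In 12 of 63 members the AC and YC arrays did not overlap, 6 in each direction, against 5.09% of all tested. The plot of fold changes by role shows septins, Arp2/3 subunits, coronins, tropomyosins, tensins and alpha-actinins on both sides of 0. All 7 actin probe sets lay below 0 and all 3 ERM proteins above it, also with array medians made equal and after quantile normalization. The 3 tested capping proteins, 3 profilins and 3 adducins lay below 0 as deposited, but with array medians made equal 1 of each lay above it. At an unadjusted p under 0.05, 28 members differed (44.4%), against 27.4% of all tested.

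**Figure D1:**
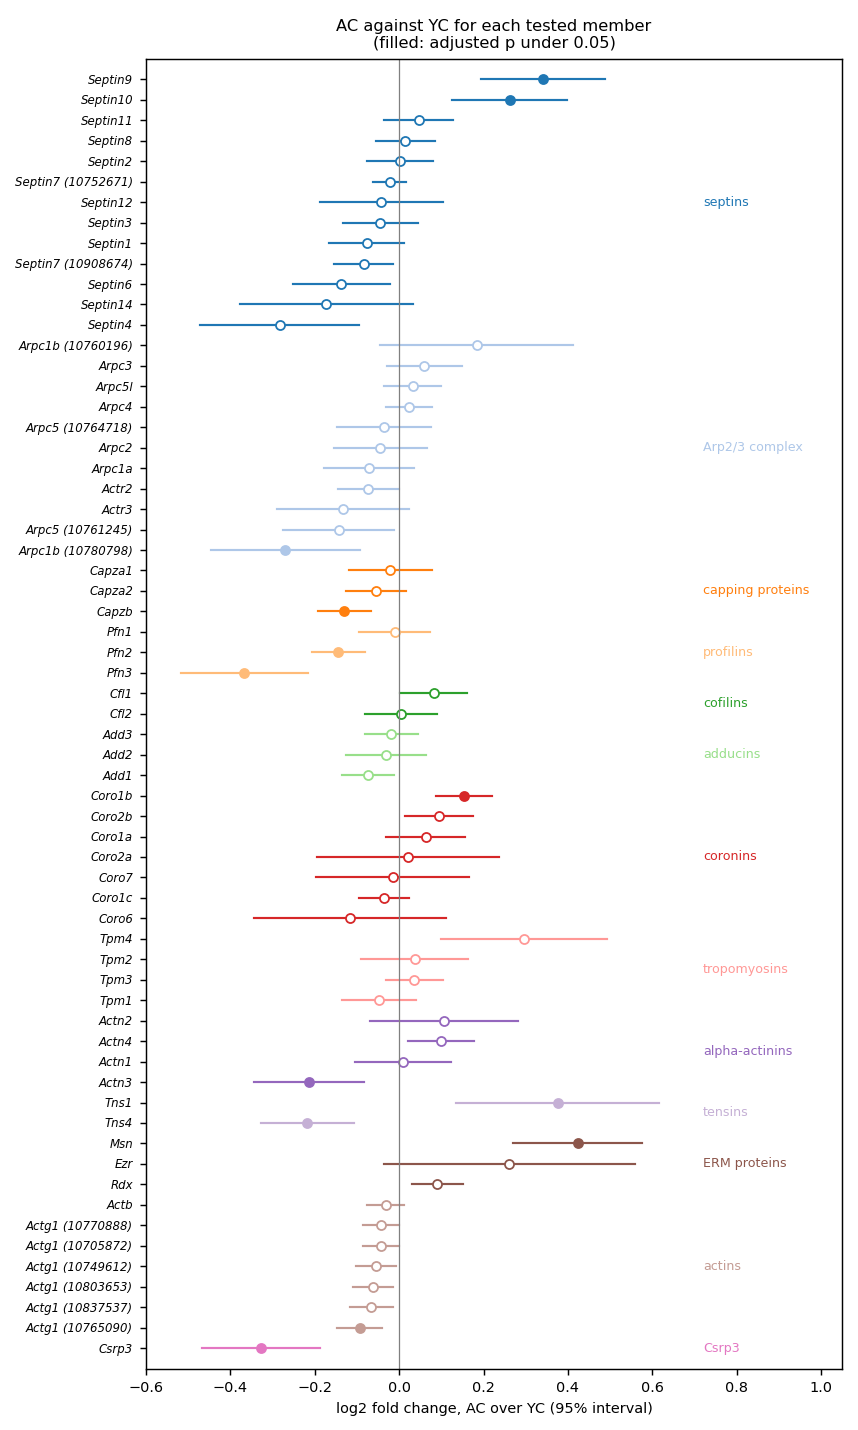
Log2 fold change of AC over YC (horizontal axis) with its 95% confidence interval for each of the 63 tested members, ordered by role; filled points passed an adjusted p of 0.05. Msn, Tns1 and Septin9 lie farthest to the right and Pfn3 and Csrp3 farthest to the left, and most other members lie within 0.2 of 0.

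The count moved with the arrays in the fit. With the 4 choroid-high arrays left out, 4 members passed (Msn and Coro1b higher, Pfn3 and Csrp3 lower), against 2.98% of all tested, in a fit with 3 AC and 4 LT arrays. Among the 9 members that no longer passed, the log2 difference of Tns1 was 0.12 without those arrays, against 0.38 with them, and that of Actg1 -0.069, against -0.094. The others moved less than Tns1. Septin9 was at 0.33 without those arrays, against 0.34 with them, Septin10 at 0.22 against 0.26 and Pfn2 at -0.13 against -0.14. Capzb was at -0.13 in both, Tns4 at -0.19 against -0.22, Actn3 at -0.25 against -0.21 and Arpc1b at -0.30 against -0.27. Without AC replicate 5, 11 passed, against 11.9% of all tested, and without AC replicate 1, 21 passed, against 14% of all tested. AC replicate 1 was the lowest or highest AC array for 52.4% of members, against 42.6% of all tested, and had an array weight of 0.58. Across all 23 arrays left out singly, the count ran from 9 to 21, and the share of all tested from 5.97% to 14%. The 9 calls came without AC replicate 3 (5.97% of all tested), AC replicate 4 (6.15%) or YC replicate 6 (6.93%). With array medians made equal, the calls split into 7 higher and 4 lower (7.43% and 2.67% of all tested), and after quantile normalization into 5 and 6 (5.68% and 4.04%).

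Among the 13 septin probe sets, 2 were higher in AC than in YC and none was lower. Septin9, whose product sits at the center of septin hetero-octamers and also binds microtubules, gave signals of 791, 818, 828, 830, 838 and 841 in LT, 825, 839.5 and 872 in ST (lowest, median and highest, as for the groups of 6 from here on), 818, 832, 917, 1019 and 1262 in AC replicates 1 to 5, and 733, 761 and 775 in YC. Every aged array lay above every YC array, and AC replicates 3, 4 and 5 lay above all others. The log2 fold change of AC over YC was 0.34 (SE 0.071, adjusted p = 0.0062), 0.24 without AC replicate 5 (adjusted p = 0.0026) and 0.33 without the 4 choroid-high arrays (adjusted p = 0.051). ST and LT lay 0.16 and 0.12 above YC (adjusted p = 0.18 and 0.44). Septin10 ran at 151, 161.5 and 190 in LT, 154, 171 and 193 in ST, 167, 166, 174, 198 and 183 in AC and 139, 145 and 165 in YC. All AC arrays lay above all YC arrays, by 0.26 on the log2 scale (SE 0.065, adjusted p = 0.016), and the call was lost without AC replicate 4 (adjusted p = 0.051) or without the choroid-high arrays (0.22, adjusted p = 0.081).

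Septin4 and Septin7 are, with Add1, Csrp3, Pfn2 and Tns4, the 6 members in the study's main gene table. The study chose them on these arrays, and its longer lists hold further members, among them Msn and Coro1b, so their direction is not independent evidence. Septin4, strongly made by oligodendrocytes and other glia, gave 2103, 2391.5 and 2615 in LT, 2218, 2319 and 2722 in ST, 2183, 2370, 2124, 2063 and 1433 in AC and 2231, 2482.5 and 2639 in YC. AC replicate 5 held the lowest value of all arrays, and this array also had the lowest oligodendrocyte score among AC arrays; the part of that cell type was not tested. The log2 difference of AC from YC was -0.28 (SE 0.091, adjusted p = 0.052) and -0.16 without AC replicate 5 (adjusted p = 0.095). Septin7, the subunit shared by the main septin complexes, gave 2180, 2264 and 2383 in LT, 2205, 2267 and 2389 in ST, 2024, 2210, 2038, 2236 and 2107 in AC and 2153, 2256 and 2336 in YC on probe set 10908674, -0.084 in AC over YC (SE 0.034, adjusted p = 0.11). Its other probe set, 10752671, read 157 to 163 on all arrays. Septin6 and Septin14 had differences of -0.14 and -0.17 (adjusted p = 0.12 and 0.27). Septins 1, 2, 3, 8, 11 and 12 lay between -0.077 and 0.046 in AC over YC, none past the threshold.

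Of 3 tested profilins, 2 were lower in AC. Pfn2, the main profilin of neurons and in the study's main gene table, gave 3068, 3147 and 3227 in LT, 3021, 3123.5 and 3260 in ST, 3224, 2903, 2853, 3006 and 2861 in AC and 3185, 3288.5 and 3406 in YC. Of the AC arrays, 4 of 5 lay below all YC arrays and replicate 1 lay among them. AC was lower by 9.47% (log2 -0.14, SE 0.031, adjusted p = 0.0070). Pfn3, known mainly from testis, gave 44, 47.5 and 54 in LT, 45, 48 and 62 in ST, 44, 40, 44, 45 and 46 in AC and 51, 56.5 and 61 in YC. No AC array reached the lowest YC array, and the log2 difference was -0.37 (SE 0.072, adjusted p = 0.0043). These Pfn3 signals lay near the signal minimum of 40. Pfn1, the profilin found in most cells, differed by -0.011 (adjusted p = 0.89). Cfl1, the cofilin of nonmuscle cells, gave 1973 to 2134 in LT, 2082 to 2279 in ST, 2038 to 2356 in AC and 1927 to 2177 in YC, with a difference of 0.082 (adjusted p = 0.17), and Cfl2, the muscle cofilin, one of 0.0050 (adjusted p = 0.95).

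The actins differed little. Actb, cytoplasmic beta-actin, gave 11836, 12044.5 and 12289 in LT, 11863, 12032 and 12161 in ST, 12160, 12057, 11873, 11797 and 11448 in AC and 11955, 12118.5 and 12303 in YC, a log2 difference of -0.032 in AC over YC (SE 0.021, adjusted p = 0.34). The 6 Actg1 probe sets, for cytoplasmic gamma-actin, differed by -0.042 to -0.094, and 1 of them passed, at 8758, 8954.5 and 9339 in LT, 8896, 9076 and 9475 in ST, 9358, 9107, 8852, 8625 and 8917 in AC and 9238, 9595 and 9808 in YC (-0.094, SE 0.026, adjusted p = 0.027). Probe sets 10705872 and 10770888 gave nearly the same signals on every array, so the 6 are not independent measurements, and which copy of this multigene family each one reads is uncertain. With array medians made equal, or after quantile normalization, the Actg1 call was lost.

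In the Arp2/3 complex, 1 of 11 probe sets passed. It was probe set 10780798 for Arpc1b, a regulatory subunit most abundant in blood and immune cells, with 129, 165.5 and 177 in LT, 137, 151 and 163 in ST, 168, 116, 148, 148 and 141 in AC and 159, 171 and 191 in YC (-0.27, SE 0.085, adjusted p = 0.048). The other, 10760196, gave 363, 380 and 439 in LT, 344, 369 and 454 in ST, 385, 320, 397, 421 and 603 in AC and 316, 377 and 401 in YC, a difference of 0.18 (adjusted p = 0.29). Without AC replicate 5 the difference of 10760196 was 0.050 (adjusted p = 0.74 in limma's test). Both probe sets carry the same symbol and lay on opposite sides of 0, and the call on 10780798 held in 12 of 35 alternatives. Actr2, an actin-related core subunit, gave 4301, 4362 and 4580 in LT, 4312, 4550 and 4599 in ST, 4770, 4460, 4348, 4329 and 3962 in AC and 4441, 4587.5 and 4773 in YC, with a difference of -0.073 (adjusted p = 0.18). Actr3, the other core subunit, gave 1307 on AC replicate 5, against 1827 to 2069 on all other arrays. Arpc2 read 3374 and Arpc1a 1259 on that array, the lowest of any array for both. Without AC replicate 5 the AC over YC differences of Actr3, Arpc2 and Arpc1a were -0.018, 0.025 and -0.0018, against -0.13, -0.044 and -0.070 with it.

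Of the capping proteins, Capzb alone passed. Capzb, the beta subunit of the capping protein, gave 2973, 3129.5 and 3299 in LT, 3056, 3176.5 and 3223 in ST, 3188, 3121, 3050, 3030 and 2844 in AC and 3231, 3336.5 and 3416 in YC. All AC and all ST arrays lay below all YC arrays, and AC was lower by 8.63% (log2 -0.13, SE 0.030, adjusted p = 0.011). Its partners Capza1 and Capza2 differed by -0.021 and -0.055 (adjusted p = 0.82 and 0.31). Add1, an adducin that caps filaments beneath the membrane and is in the same table, gave 1971, 2069.5 and 2131 in LT, 2081, 2159 and 2213 in ST, 2133, 2149, 2062, 1942 and 1968 in AC and 2100, 2160.5 and 2201 in YC, -0.073 in AC over YC (SE 0.030, adjusted p = 0.12). Add2 and Add3 lay at -0.031 and -0.018.

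Coro1b, a coronin that works at branch points, was 1 of 7 coronins to pass. It gave 491, 538.5 and 560 in LT, 538, 564 and 585 in ST, 540, 563, 564, 559 and 563 in AC and 478, 504.5 and 519 in YC. Every ST and AC array lay above every YC array, and AC was higher by 11.3% (log2 0.15, SE 0.032, adjusted p = 0.0062). The call held in all 35 alternatives run for it. Coro1c, a coronin of most tissues, gave 1534 to 1656 in LT, 1502 to 1625 in ST, 1543 to 1624 in AC and 1575 to 1675 in YC (-0.035, adjusted p = 0.45). Coro1a, the coronin of leukocytes, differed by 0.063 (adjusted p = 0.39). On AC replicate 5 Coro7 read 614, against 890 to 947 on the other AC arrays, and Coro2a read 477, against 290 to 338.

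Among filament-lining and crosslinking proteins, Tpm4, a tropomyosin of nonmuscle cells, came close to the threshold. It gave 354, 429 and 506 in LT, 368, 401 and 412 in ST, 375, 417, 475, 565 and 570 in AC and 371, 384.5 and 410 in YC (0.30, SE 0.094, adjusted p = 0.050068, above 0.05). AC replicates 3 to 5 were the 3 highest AC arrays, and without AC replicate 5 the difference was 0.23 (adjusted p = 0.11). Tpm1, Tpm2 and Tpm3 lay between -0.047 and 0.037, Tpm3 with 1089 to 1147 in LT, 1160 to 1213 in ST, 1129 to 1292 in AC and 1104 to 1215 in YC. Actn3, the alpha-actinin of fast muscle fibers, was lower in AC, at 118, 133 and 146 in LT, 107, 119.5 and 133 in ST, 123, 120, 119, 124 and 98 in AC and 129, 135 and 141 in YC (-0.21, SE 0.063, adjusted p = 0.037). AC and YC did not overlap, and without AC replicate 5 the difference was -0.15 (adjusted p = 0.083). Actn4, made by most cells, gave 1422 to 1629 in LT, 1436 to 1556 in ST, 1441 to 1616 in AC and 1397 to 1541 in YC (0.10, adjusted p = 0.095), and Actn1 and Actn2 lay at 0.0092 and 0.11.

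Among all tested members, Msn had the largest log2 difference of AC from YC. Msn, an ERM protein made by endothelium, microglia and leukocytes, gave 281, 324 and 368 in LT, 283, 327 and 370 in ST, 299, 329, 358, 387 and 373 in AC and 250, 257.5 and 276 in YC. All 17 aged arrays lay above all 6 YC arrays. AC was higher by 34.1% (log2 0.42, SE 0.074, adjusted p = 0.0021), and the call held in all 35 alternatives, between 0.36 and 0.48. Microglia genes (8 of 9) and endothelium genes (5 of 7) were also higher in AC than in YC, with median differences of 0.47 and 0.39; their part in the Msn difference was not tested. Rdx, radixin, gave 1371, 1391 and 1490 in LT, 1397, 1432.5 and 1489 in ST, 1420, 1513, 1406, 1446 and 1489 in AC and 1322, 1368.5 and 1388 in YC; all AC and ST arrays lay above all YC arrays, by 0.091 for AC (SE 0.029, adjusted p = 0.050267, above 0.05). Ezr, ezrin, of epithelia and choroid plexus, followed that tissue's genes: LT replicates 2 and 5 read 779 and 845 and AC replicates 3 and 4 read 717 and 941, against 478 to 603 on the other arrays, and the AC over YC difference of 0.26 (adjusted p = 0.25) was -0.0094 without those 4 arrays.

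The same 4 arrays were the highest for Tns1, a tensin of focal adhesions. It gave 277, 296.5 and 397 in LT, 268, 278 and 316 in ST, 289, 301, 464, 477 and 319 in AC and 267, 281 and 288 in YC, a difference of 0.38 (SE 0.12, adjusted p = 0.044) that was 0.12 without them (adjusted p = 0.16). The Tns1 call was lost in 14 of 35 alternatives, among them leaving out AC replicate 3 or 4, ST replicate 2 or any 1 YC array. Tns4 and Csrp3 are also in that table, both with signals near the signal minimum of 40. Tns4, a short tensin of epithelia, gave 61, 65.5 and 74 in LT, 54, 59.5 and 64 in ST, 60, 55, 50, 58 and 54 in AC and 60, 64 and 70 in YC, and 4 of 5 AC arrays lay below all YC arrays (-0.22, SE 0.053, adjusted p = 0.015). Csrp3, the muscle LIM protein that binds alpha-actinin at the Z disc, gave 47, 52 and 58 in LT, 41, 47 and 52 in ST, 47, 39, 39, 48 and 43 in AC and 51, 53.5 and 59 in YC, and AC and YC did not overlap (-0.33, SE 0.067, adjusted p = 0.0059). Beside Csrp3 and Actn3, both best known from striated muscle, 9 of 10 striated muscle marker genes lay below 0 in AC over YC and 1 passed (Actc1, -0.28, adjusted p = 0.024). Summed, these 10 genes gave 1258 to 1481 in LT, 1272 to 1457 in ST and 1221 to 1345 in AC, against 1395 to 1480 in YC; their part was not tested.

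**Figure D2:**
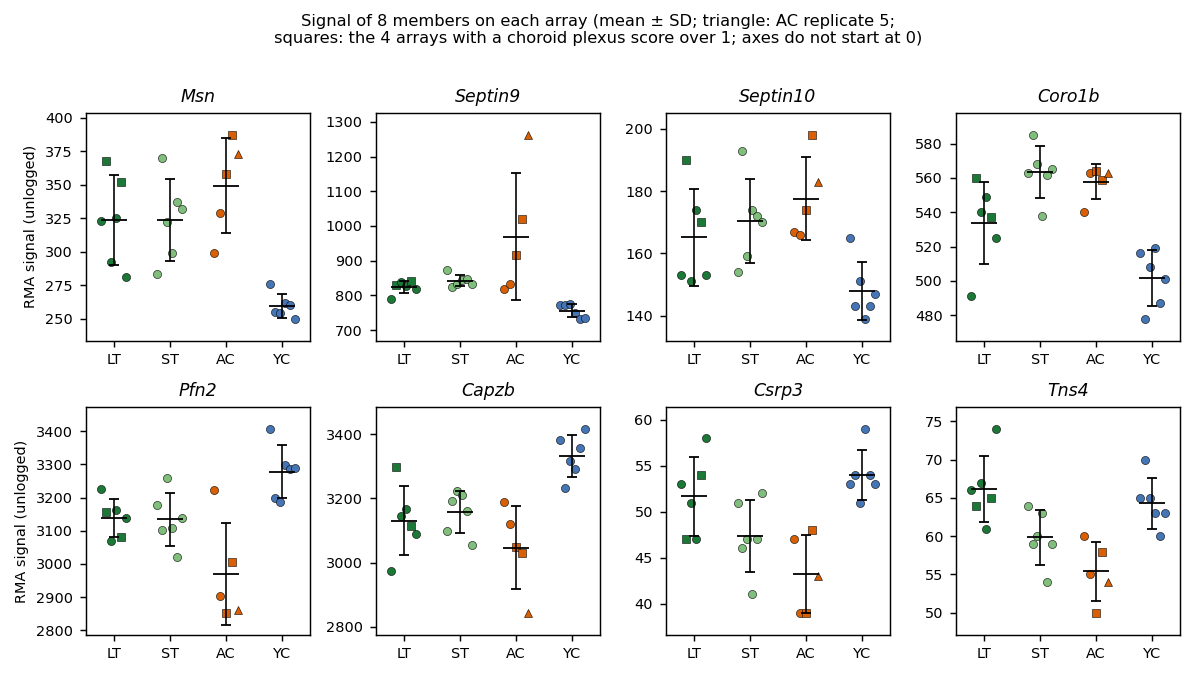
Unlogged RMA signal of 8 members on each array in LT, ST, AC and YC, with the group mean and SD; the triangle is AC replicate 5, squares are the 4 arrays high in choroid plexus genes, and vertical axes do not start at 0. All aged arrays lie above YC for Msn and Septin9, the Septin9 value of 1262 on AC replicate 5 stands clear of the other arrays, and for Tns4 the LT arrays (61 to 74) lie above all AC arrays (50 to 60).

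LT and ST were each set against AC to ask whether FKBP1b moved these members in aged rats, and both comparisons share the 5 AC arrays. None of 63 members passed in LT against AC (0.075% of all tested passed; at an unadjusted p under 0.05, 11 members or 17.5%, against 12.6% of all). In ST against AC none passed either, and none was without overlap (0% of all tested passed and 0.51% had no overlap; unadjusted 12 members or 19%, against 9.82%), nor for the mean of both groups against AC (0.03% of all; unadjusted 9 members or 14.3%, against 10.5%). Median differences over the members were 0.0053 for LT and 0.017 for ST, beside -0.0031 and 0.010 over all tested probe sets.

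Tns4 came nearest in LT. Its LT arrays, at 61 to 74, lay above every AC array, at 50 to 60, the only member without overlap in that comparison (1.59%, against 1.03% of all tested). The log2 difference of LT over AC was 0.26 (SE 0.053, adjusted p = 0.053), and it passed without AC replicate 1 (adjusted p = 0.022), without LT replicate 4 (adjusted p = 0.041) and when unnamed probe sets were tested too (adjusted p = 0.037). ST over AC was 0.11 for Tns4 (SE 0.053, adjusted p = 0.50). Csrp3 followed with 0.26 in LT over AC (SE 0.067, adjusted p = 0.13), where 4 of 6 LT arrays lay above all AC arrays, and 0.13 in ST over AC (adjusted p = 0.53). Septin9 lay at -0.22 in LT over AC (SE 0.071, adjusted p = 0.21), and at -0.12 without AC replicate 5 in the same comparison.

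In ST, Septin7 had the smallest p. ST lay 0.11 above AC on the log2 scale (SE 0.034, adjusted p = 0.34) and LT 0.10 above AC (adjusted p = 0.21), with 5 of 6 ST arrays and 3 of 6 LT arrays above the highest AC array. Tns1 in ST lay at -0.34 (SE 0.12, adjusted p = 0.38); the highest AC values were those of the choroid-high replicates 3 and 4. Septin4 was at 0.25 in ST over AC (SE 0.091, adjusted p = 0.40) and 0.24 in LT over AC (adjusted p = 0.28); without AC replicate 5, which held the lowest AC value, these were 0.13 and 0.12. Pfn2 was at 0.081 in LT and 0.079 in ST over AC (adjusted p = 0.27 and 0.43) and Add1 at 0.0080 and 0.073 (adjusted p = 0.94 and 0.44). None of the 6 members of the study's main gene table passed the adjusted threshold in either comparison. The study called them in ST, LT or both by pairwise tests at an unadjusted p of 0.05, after an analysis of variance. The thresholds are therefore unlike, and of all tested probe sets 0% passed the adjusted one in ST against AC and 0.075% in LT against AC.

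**Figure D3:**
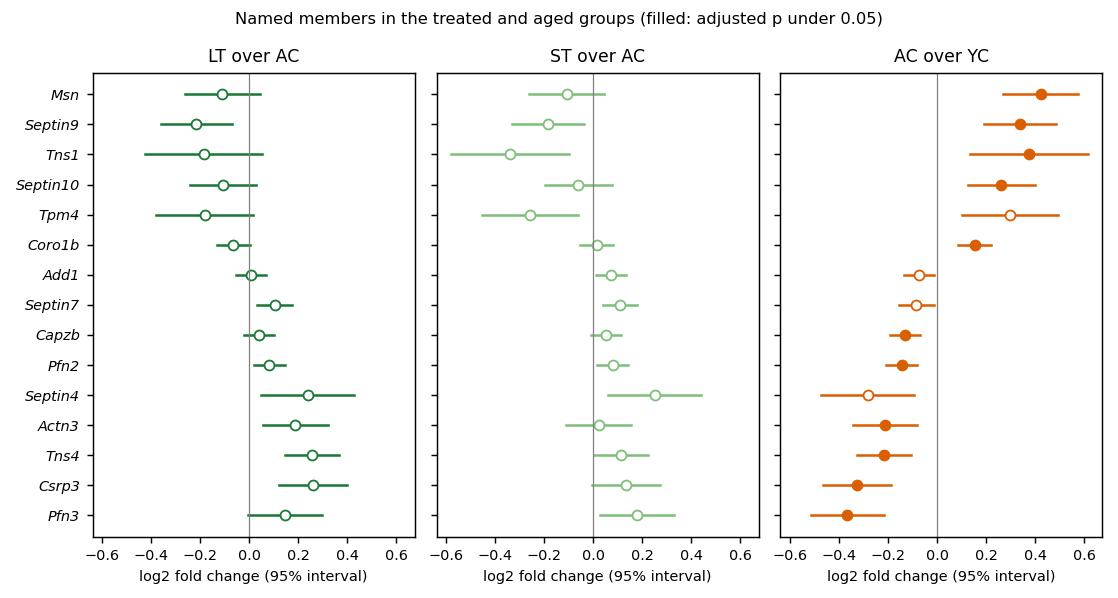
Log2 fold changes with 95% confidence intervals for 15 members in LT over AC, ST over AC and AC over YC (left to right); filled points passed an adjusted p of 0.05. No point is filled in the LT and ST panels, and all 3 panels use the same AC arrays, so their positions are not independent of each other.

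LT against ST asked whether the group with longer exposure, injected at a younger age, differed from the one with shorter exposure. None of 63 members passed (0.0075% of all tested; unadjusted 11 members or 17.5%, against 12.4%), and Tpm3 was the only member without overlap (1.59%, against 1.5%), at 1089 to 1147 in LT and 1160 to 1213 in ST (-0.069, adjusted p = 0.37). Tpm2, a tropomyosin of muscle, gave 103, 106.5 and 126 in LT and 118, 123.5 and 141 in ST (-0.19, SE 0.058, adjusted p = 0.21). Coro1a gave 481, 524 and 598 in LT and 579, 580.5 and 627 in ST (-0.14, SE 0.043, adjusted p = 0.21), and Arpc5l, an Arp2/3 subunit, differed by -0.091 (SE 0.031, adjusted p = 0.26).

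Set against YC, the treated aged groups also held members past the threshold. Msn was higher than YC in LT (0.31, SE 0.070, adjusted p = 0.034) and in ST (0.31, SE 0.070, adjusted p = 0.015), and Coro1b in ST (0.17, SE 0.031, adjusted p = 0.0044), where all ST arrays lay above all YC arrays. This makes 1 of 63 members in LT (1.59%, against 1.03% of all tested; 0.81% higher and 0.225% lower) and 2 in ST (3.17%, against 4.15%; 2.71% higher and 1.44% lower). Of 9 microglia genes, 4 in LT and 6 in ST were also higher than YC, and their part was not tested. No overlap with YC was seen for 2 members in LT (Msn and Septin9; 3.17%, against 3.33% of all tested) and 5 in ST (Msn, Septin9, Coro1b and Rdx higher, Capzb lower; 7.94%, against 4.72%). The Msn call in LT was lost without the choroid-high arrays, with the RNA integrity number as a covariate, and on leaving out LT replicate 1, 2, 4 or 5 or any of YC replicates 2 to 6. The methods' analysis of variance, adjusted, called 1 member in LT against YC (0.84% of all tested). That member was lower than YC, so the Msn call was not kept there either. For Coro1b, LT lay 0.089 above YC (adjusted p = 0.18) and LT over ST was -0.079 (adjusted p = 0.30). A test over all 4 groups at once (limma's F test) passed 8 members, Msn, Coro1b, Tns4, Csrp3, Pfn3, Septin9, Pfn2 and Capzb (12.7%, against 5.46% of all tested; at an unadjusted p under 0.05, 25 members or 39.7%, against 24.2%).

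**Figure D4:**
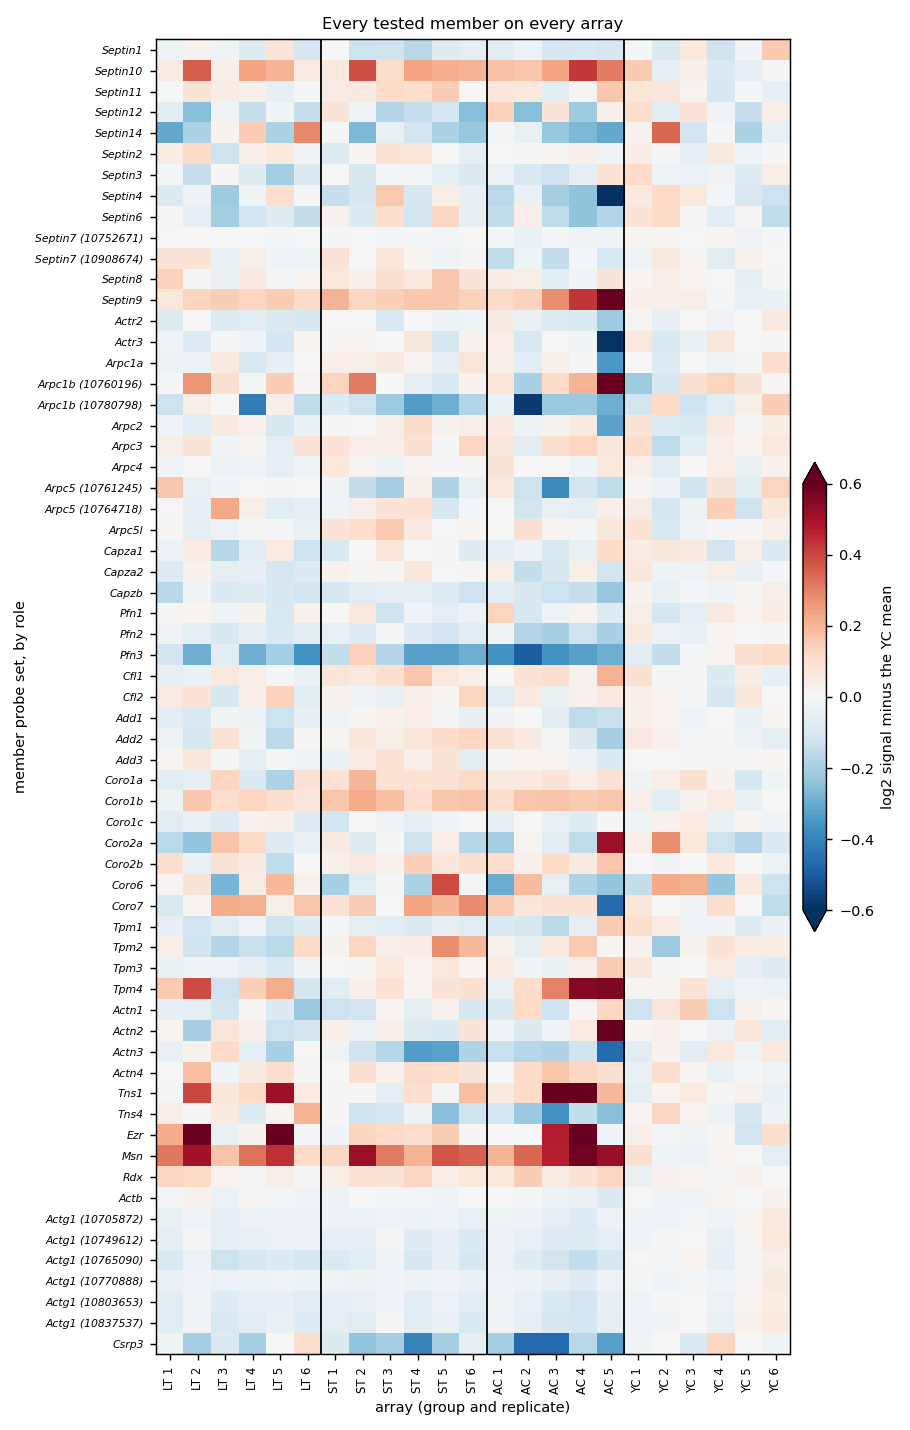
Log2 signal minus the YC mean for each tested member (down, by role) on each array (across, LT, ST, AC and YC), with colors ending at 0.6 in either direction. Msn is red across all aged arrays, and Ezr and Tns1 are red on LT replicates 2 and 5 and AC replicates 3 and 4. AC replicate 5 carries isolated strong values, among them Septin4 (1433), Septin9 (1262), Arpc1b (603 on probe set 10760196), Actn2 (502), Actr3 (1307) and Coro7 (614).

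Other regulators of actin, in 4 lists by pathway, gave 8 genes higher in AC than in YC and none lower. Of all tested probe sets, 5.56% were higher and 4.18% lower. Of 13 tested nucleation promoting factors and WAVE complex genes, 2 were higher (Wasf2, 0.19, adjusted p = 0.016, and Wipf1, 0.17, adjusted p = 0.014), with a list median of -0.012. Of 20 severing, sequestering and end-binding proteins 3 were higher (Capg 0.34, Tmod3 0.26 and Enah 0.16), and of 22 crosslinkers, spectrins and nonmuscle myosins 3 (Flna 0.39, Tln1 0.28 and Zyx 0.15), while none of 3 formins passed. Tln1, talin, which couples integrins to actin, averaged 297 in LT, 293 in ST, 311 in AC and 257 in YC and was also higher than YC in LT (0.21, adjusted p = 0.011) and ST (0.19, adjusted p = 0.0085). In ST or LT against AC no gene of these 4 lists passed (0% and 0.075% of all tested passed).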

How the data were processed

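The authors made the deposited values: signal intensity per probe set by the Robust Multi-array Average (RMA), unlogged, with Partek named in the submitters' processing notes and no version stated there. Array medians were 134 to 141. Values were used as deposited and converted to log2. The 13339 probe sets that carry a single symbol and reach 40 on 4 or more arrays were fitted with limma 3.58.1 in R 4.3.3, with 1 mean per group and all 23 arrays, with Benjamini-Hochberg adjustment over all of them and a threshold of 0.05. Symbols came from the platform annotation, and all 65 members kept theirs in RefSeq. Members, lists and tests were chosen with earlier results of these data known. Values per array are given for members past the threshold in any comparison, the 3 smallest p values where none passed, the 6 members of the study's main gene table and the highest signal in each role. The fit was tested on simulated data. Arrays have no read depth, and their number limits the precision. Levels are not compared between probe sets.

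Alternatives were leaving out each array, the replicate number as a block, equal array medians, quantile normalization, other signal minimums, all probe sets, values over 2 SD from the group mean set to missing, the methods' analysis of variance, the RNA integrity number as a covariate, array weights, only the compared groups, and leaving out arrays high in choroid plexus genes. The analysis of variance was followed by counts of members only and is not among the 35 alternatives given for single members. The limit of 1 on the choroid plexus score was added after seeing the data. The planned limit of 0.5 also leaves out LT replicate 1. Behavior, immunostaining and qRT-PCR were not analysed here, and 1 further pathway list is not reported here.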

Additional observations from a re-analysis of the deposited data

Results flagged for a closer look

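A value was marked where the highest or lowest array of a group stood apart by Dixon's ratio. Over 252 group sets of members there were 20 such values on 18 probe sets, and chance marks about 1 in 20 sets. AC replicate 5 held 7 of the 20, at 98 for Actn3, 614 for Coro7, 1307 for Actr3, 502 for Actn2, 801 for Capza1, 477 for Coro2a and 3374 for Arpc2. This array was so marked for 11.1% of members and 5.77% of all tested probe sets. Among the other AC arrays only replicate 1 was marked, with 540 for Coro1b, below 559 to 564 on the rest.

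In ST, replicate 2 stood apart with 627 for Coro1a and 62 for Pfn3, replicate 3 with 4312 for Actr2, replicate 4 with 1928 for Capza2 and 4559 for Arpc2, and replicate 5 with 416 for Coro6. In LT, the values were 209 on replicate 1 and 2005 on replicate 3 for the 2 probe sets of Arpc5 and 4580 on replicate 2 for Actr2. In YC, replicate 2 read 55 for Septin14 and 100 for Tpm2, and replicate 4 read 1323 for Coro2b.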

How the results depend on the processing

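Msn, Coro1b, Pfn3 and Csrp3 stayed past the threshold in AC against YC under every alternative that tested them gene by gene, and Coro1b and Msn in ST against YC. The methods' analysis of variance was not among these. With adjustment it kept 11 of the 13 calls in AC against YC, and which ones was not followed. Signals of Pfn3 (40 to 62) and Csrp3 (39 to 59) lay near the signal minimum of 40, and neither was tested at a minimum of 100. The other 9 calls in AC against YC and the Msn call in LT against YC were each lost in at least 1 alternative, and all of these without the choroid-high arrays, where fewer arrays remain; of the 9, Tns1 shrank most there, to 0.12 against 0.38, while Septin9 (0.33), Capzb (-0.13), Pfn2 (-0.13), Actn3 (-0.25) and Arpc1b (-0.30) stayed about as large. For the other changes the cause was not tested. The number of arrays limits the precision, and cell mixture, age, surgery and vector were not separated.

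For AC against YC the 13 calls became 4 without either the 5 arrays with a choroid plexus score over 0.5 or the 4 over 1 (2.89% and 2.98% of all tested passed), 6 with only the compared groups in the fit (2.89%), and 31 by the methods' analysis of variance without adjustment (27%). That unadjusted test gave 12 in ST against AC (9.78% of all tested), 14 in LT against AC (12.5%), 10 for the mean of both (10.4%), 11 in LT against ST (12.4%), 22 in ST against YC (21.2%), 15 in LT against YC (13.4%) and 29 over all groups (24.2%). With adjustment the same analysis gave 18 in AC against YC (8.91%), 11 of them among the 13. In LT against AC 1 passed with all probe sets tested (0.501%). ST against YC gave 6 with array medians made equal (9.27%), 9 with array weights (15%) and 7 with only the compared groups (8.67%). LT against YC gave 0 with the RNA integrity number as a covariate (0.765%) and 0 without the 5 or 4 choroid-high arrays (0.187% and 0.307%), 3 with array weights (3.15%) and 2 with only the compared groups (2.68%). The F test gave 2 without the 5 or 4 arrays (2.37% and 2.54%).

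Leaving out 1 array gave 9 to 21 calls in AC against YC (21 without AC replicate 1), 0 to 0 in ST against AC, 0 to 1 in LT against AC (1 without AC replicate 1 or LT replicate 4), 0 to 3 for the mean (3 without AC replicate 1), 0 to 0 in LT against ST, 2 to 4 in ST against YC (4 without ST replicate 1 or AC replicate 5), 0 to 1 in LT against YC (0 without LT replicates 1, 2, 4 or 5 or YC replicates 2 to 6) and 4 to 13 in the F test (13 without AC replicate 1, 4 or 5 without AC replicate 4 or YC replicates 2, 4, 5 or 6). Add1 in LT over AC, 0.0080, ran from -0.011 to 0.025 with 1 array left out and turned to -0.0017 without LT replicate 3, -0.011 without AC replicate 4, -0.0066 without AC replicate 5 and -0.0081 with array medians made equal.

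The replicate numbers did not pair the arrays: of 33 same-numbered pairs 7 had a correlation of deviations over 0.1, from -0.39 to 0.21, and 2 of 23 arrays matched their own number best. With the number as a block, AC against YC had 11 calls and the F test 6, and the other counts did not change.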
